A study of Bos taurus with 8 samples.

Results

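The S100 calcium-binding proteins are described here in the rumen papillae of dairy cows. Of 10 S100 genes listed (S100A1, S100A2, S100A4, S100A7, S100A8, S100A9, S100A10, S100A11, S100A12 and S100A14), 8 had a probe whose RefSeq accession carried their symbol, out of 7788 named genes and 21475 probes on the array. S100A1 and S100A2 had no matched probe and are not analysed here. Each of the 8 genes had 1 probe, printed in 2 spots. Rumen papillae were taken from 4 ruminally cannulated female Holstein cattle, each fed in one period a low-concentrate diet with 40% concentrate (LC) and in the other a ration with 70% concentrate (HC). The tissue was cut from the ventral sac on day 21 of each period, 4 h after the morning feeding. Cows 1 and 2 received LC in period 1 and HC in period 2, and cows 3 and 4 the reverse, so each diet had 4 arrays. All animals were of the same breed, no untreated group exists, and each cow was its own control. The animals' age is not given in the labels.

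S100 proteins are small calcium sensors with paired EF-hand motifs that mostly work as dimers. Inside the cell they bind partners such as annexins and myosin, and several are released at epithelial surfaces, where they act as antimicrobial, zinc-binding proteins and as ligands of the receptors AGER (RAGE) and TLR4. S100A8, S100A9 and S100A12, the calgranulins, are known from neutrophils and from stratified squamous epithelium, which lines the rumen and also makes S100A7 and S100A14.

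Single-colour Agilent arrays gave an intensity for each spot, which was quantile-normalized between arrays and is given as log2 signal. A log2 difference of 1 is a doubling, and signals of different probes cannot be ranked against each other. The scanner software's test put 76.9 to 81.2% of an array's probes well above background, and none of the spots was saturated. The 4 arrays of a period shared a slide, and the effects of slide and of period cannot be told apart. The labelled tissue was checked by its markers. Of 11 squamous epithelium markers with a probe, 10 were well above background on all 8 arrays, among them the basal keratin KRT14 and KRT6A, and TP63 was so on none.

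None of the 8 S100 genes passed the test for diet. The mean log2 signal was higher on HC in 4 of them and lower in 4, and the differences ran from -0.17 (S100A14) to 0.28 (S100A9). At the fold change of 1.5 and unadjusted p of 0.05 used for calls, 0 of 8 were called by limma, against 0.922% of all probes (198 of 21475). No S100 gene had an unadjusted p under 0.05, which 3.65% of all probes had, and the p values ran from 0.527 to 0.851, with an adjusted p of 0.9995 for each. The median diet difference of the 8 genes was -0.01. LC and HC arrays overlapped in all 8, while they did not overlap in 1.6% of all probes. Permuting the diet labels over the 8 arrays (exact, two-sided) gave p from 0.286 to 0.857, where 0.0286 is the smallest possible. That test ignores that each cow supplied both diets. The paired exact sign-flip test over the 4 cows, which cannot go below 0.125, gave p from 0.5 to 1 in 7 genes and 0.125 in S100A12. Since papillae are mixed tissue, fewer cells of a type and less RNA per cell cannot be told apart in any of these values.

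**Figure D1:**
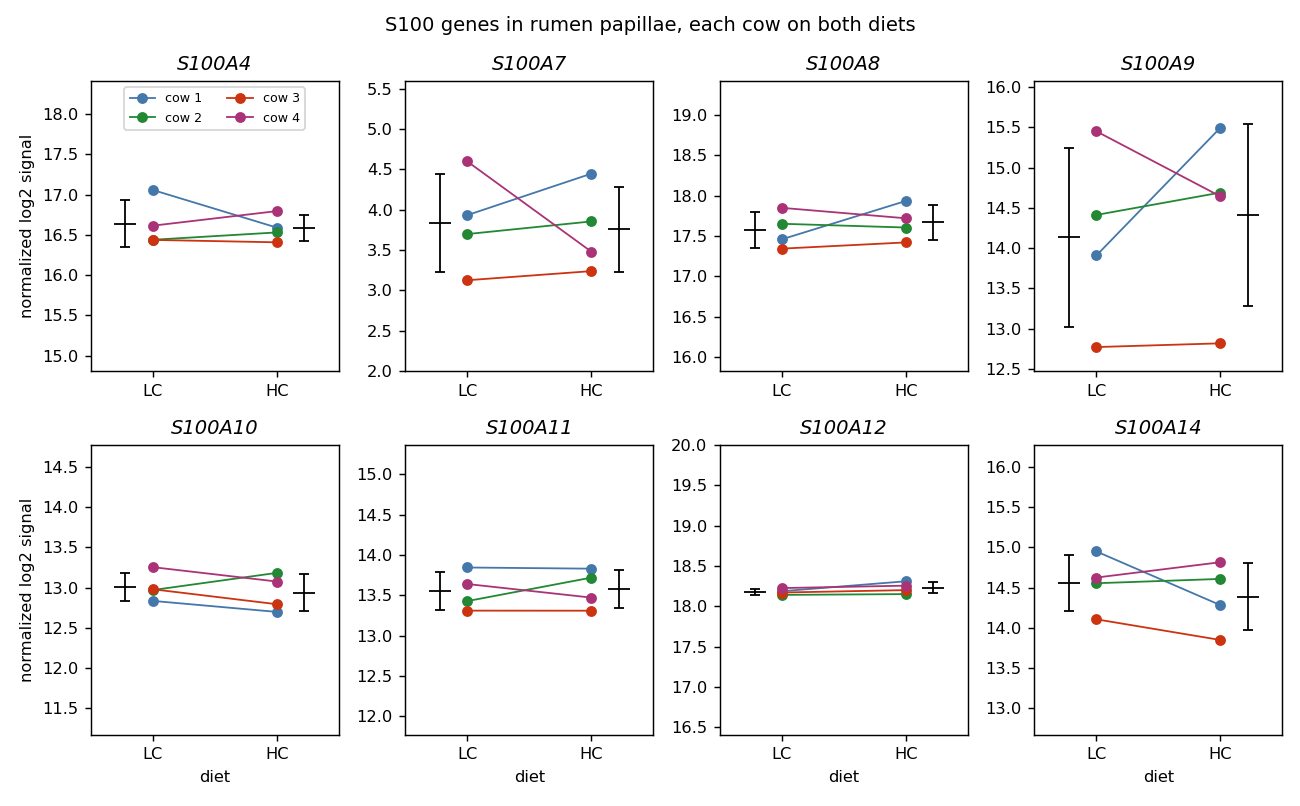
Normalized log2 signal (vertical axis, of the same length in log2 units in every panel) of the 8 S100 genes on LC and HC, with the arrays of a cow joined by a line and the mean ± SD of the 4 arrays in black beside them. The lines cross in most panels, and cow 3 is the lowest line on both diets in S100A7, S100A8, S100A9, S100A11 and S100A14. In S100A4 cow 3 is lowest on both diets as well, though on LC cows 2 and 3 both read 16.44.

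S100A8 (NM_001113725), which pairs with S100A9 to form calprotectin, had log2 signals of 17.46, 17.65, 17.34 and 17.85 in cows 1 to 4 on LC. On HC the same cows gave 17.94, 17.61, 17.42 and 17.72. Cow 3 was lowest on both diets, and the ranges of LC and HC overlapped over most of their length. The mean was 17.58 ± 0.22 on LC and 17.67 ± 0.22 on HC (SD, n = 4 each), a difference of 0.09 (SE 0.16, exact permutation p = 0.514). Its 95% interval, -0.29 to 0.48, excluded a change of 1.5-fold in either direction.

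S100A9 (NM_001046328), the zinc-binding partner of S100A8 and a ligand of TLR4, was the most variable S100 gene. Its log2 signals on LC were 13.91, 14.41, 12.77 and 15.45 in cows 1 to 4. On HC they were 15.49, 14.69, 12.82 and 14.64. Both arrays of cow 3 lay below the other 6, cow 4 was highest on LC and cow 1 highest on HC. In the scanner's own intensities, before normalization, cow 3 had 5802 on LC and 7306 on HC, while the other cows had 16109 to 52157. The means were 14.14 ± 1.11 on LC and 14.41 ± 1.13 on HC (SD, n = 4 each), and the difference of 0.28 had an SE of 0.68 (exact permutation p = 0.657). The 95% interval, -1.37 to 1.92, left room for a change beyond 1.5-fold in both directions. Within cows the change from LC to HC was 1.59 in cow 1, 0.28 in cow 2, 0.05 in cow 3 and -0.81 in cow 4, so the cows did not share a direction. Leaving out the LC array of cow 3 turned the diet difference to -0.39, and leaving out the HC array of cow 4 turned it to -0.18.

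S100A12 (NM_174651), a ligand of AGER, read 18.19, 18.14, 18.17 and 18.23 in cows 1 to 4 on LC. On HC it read 18.31, 18.15, 18.20 and 18.26. Every array lay within 0.17 of the others and each cow was higher on HC than on LC, by 0.12, 0.01, 0.03 and 0.03 in cows 1 to 4. The means were 18.18 ± 0.04 and 18.23 ± 0.07 (SD, n = 4 each), a difference of 0.05 (SE 0.086, exact permutation p = 0.286). The sign of the diet difference was not stable, being -0.01 with normexp background correction and -0.01 in the authors' normalized table. The probe ranked between 1 and 4 of all probes by brightness on every array, where the brightest and the fifth-brightest probe differed by only 0.10 to 0.23 (log2), and quantile normalization gives each rank the same value on all arrays. When each array was instead scaled to its 75th percentile, the SD over the 8 arrays was 0.15 and not 0.06. The 95% interval of the diet difference still lay within 1.5-fold both ways. After that scaling the LC array of cow 3, the dimmest by its 75th percentile, read highest (18.44). The LC array of cow 4, the brightest, read lowest (18.00). Before normalization S100A12 ran only from 295191 to 325862, where the brightest spot of each array read 324281 to 362834. Whether so bright a probe still followed its RNA was not tested. Its duplicate spots differed by a median of 0.23, more than the 0.17 between its highest and lowest normalized array.

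S100A7 (NM_174596), known in human skin as psoriasin, an antimicrobial protein of keratinocytes, gave a dim signal. It read 3.93, 3.70, 3.13 and 4.60 in cows 1 to 4 on LC and was not well above background on the LC array of cow 3. The HC arrays read 4.45, 3.86, 3.24 and 3.48. Cow 4 was highest on LC, cow 1 was highest on HC, and cow 3 was lowest on both. The difference between 3.84 ± 0.61 on LC and 3.76 ± 0.53 on HC (SD, n = 4 each) was -0.08 (SE 0.33, exact permutation p = 0.857), with a 95% interval of -0.89 to 0.72. Duplicate spots of this probe differed by a median of 0.39 and by up to 0.83, and the interval did not exclude 1.5-fold in either direction.

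S100A14 (NM_001079634), an epithelial S100 protein, read 14.95, 14.55, 14.11 and 14.62 in cows 1 to 4 on LC. On HC its signals were 14.28, 14.61, 13.85 and 14.81. Cow 3 was again lowest on each diet, and cow 1 had the largest change, a fall by 0.67. The means, 14.56 ± 0.35 and 14.39 ± 0.42 (SD, n = 4 each), differed by -0.17 (SE 0.25, exact permutation p = 0.571). The interval of -0.78 to 0.45 did not exclude a 1.5-fold decrease, and without the HC array of cow 3 the difference was 0.07.

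S100A11 (NM_001098856), an annexin A1 partner found in keratinocytes, read 13.85, 13.43, 13.31 and 13.64 in cows 1 to 4 on LC. On HC the signals were 13.83, 13.72, 13.31 and 13.47. Cow 1 was highest and cow 3 lowest on both diets. Its means of 13.56 ± 0.24 and 13.58 ± 0.24 (SD, n = 4 each) differed by 0.03 (SE 0.14, exact permutation p = 0.857).

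S100A10 (NM_174650), the p11 subunit that joins annexin A2 in a membrane complex, read 12.83, 12.97, 12.98 and 13.25 in cows 1 to 4 on LC. HC arrays of the same cows read 12.70, 13.18, 12.79 and 13.07. Cow 1 was lowest on both diets, and cow 2 was the only cow that was higher on HC, by 0.21. The means were 13.01 ± 0.18 and 12.94 ± 0.23 (SD, n = 4 each), with a difference of -0.07 (SE 0.15, exact permutation p = 0.629).

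S100A4 (NM_174595), which binds non-muscle myosin and is common in motile and mesenchymal cells, read 17.06, 16.44, 16.44 and 16.61 in cows 1 to 4 on LC. Its HC signals were 16.59, 16.53, 16.41 and 16.79. The LC array of cow 1 was the highest and lay 0.47 above that cow's HC array, and the other 7 arrays lay between 16.41 and 16.79. The means were 16.64 ± 0.29 and 16.58 ± 0.16 (SD, n = 4 each), a difference of -0.06 (SE 0.17, exact permutation p = 0.743). Without the LC array of cow 1 it was 0.10.

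**Figure D2:**
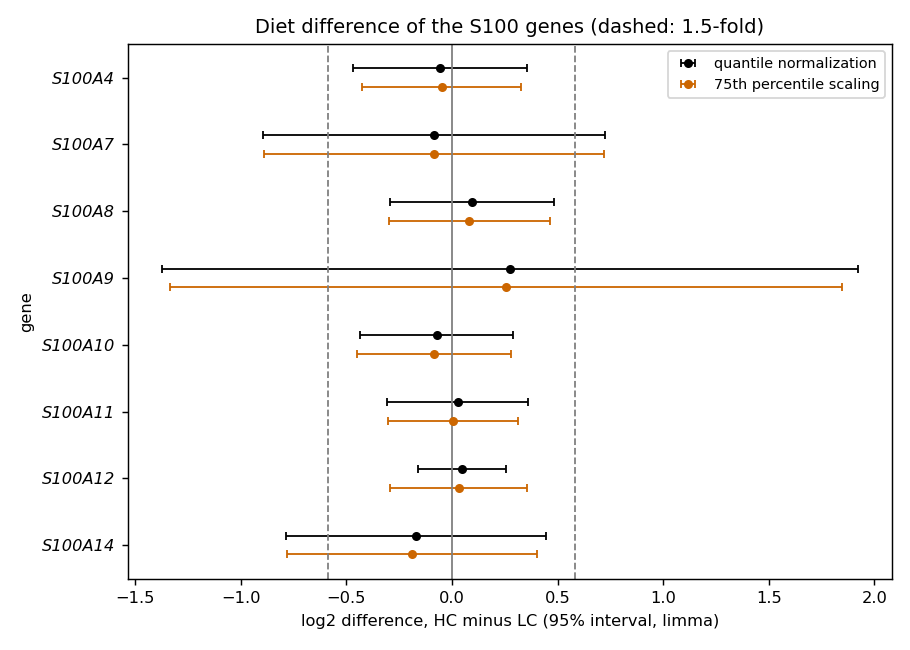
Log2 difference between HC and LC (horizontal axis; point) with its 95% interval from limma (bar) for each S100 gene, after quantile normalization in black and after scaling to the 75th percentile in orange, with dashed lines at a 1.5-fold change. All intervals include 0, and those of 5 genes stay between the dashed lines under both scalings.

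How large a diet effect these arrays could have missed differed between the genes. For S100A4, S100A8, S100A10, S100A11 and S100A12, 5 of 8, the 95% interval of the diet difference lay within 1.5-fold in both directions, as it did for 68.1% of all probes. The same 5 genes met this limit with 75th percentile scaling. For S100A12, among the brightest probes on every array, the interval describes the signal. Whether it also bounds a change in RNA was not tested. The intervals of S100A7, S100A9 and S100A14 were wider. The model behind all these intervals has no cow term, so differences between cows enter their width. With the cow as a block and period in the fit, the limma p of S100A9 for diet was 0.371 and not 0.699.

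Period made no S100 gene pass both thresholds. The differences of period 2 minus period 1 ran from -0.14 (S100A14) to 0.66 (S100A9), with limma p from 0.254 to 0.838, and 0 of 8 were called, against 3.86% of all probes. Arrays of the periods overlapped in all 8 genes and did not overlap in 7.48% of all probes. The count depended on a single array. Without the LC array of cow 3, 2 genes passed both thresholds as higher in period 2, S100A7 by 0.79 and S100A9 by 1.33. Without the LC array of cow 4 the period difference was 0.051 in S100A7 and -0.013 in S100A9.

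In this crossover the interaction of diet and period equals the difference between cows 1 and 2 and cows 3 and 4, the pairs that received the diets in opposite order. It lay between -0.10 (S100A10) and 0.71 (S100A9), with limma p from 0.0919 to 0.859 and 0 of 8 genes called, against 2.93% of all probes. Without the LC array of cow 4, S100A7 (0.74) and S100A9 (1.38) passed both thresholds. Without the LC array of cow 3 the interaction was 0.0041 in S100A7 and 0.037 in S100A9, and without both arrays of cow 3 it was -0.056 and -0.42. Within a slide, HC and LC arrays came from different cows. S100A9 was lower on HC by 0.43 in period 1 (13.73 against 14.16) and higher on HC by 0.98 in period 2 (15.09 against 14.11).

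Cow 3 stood at the low end of most S100 genes on both diets. Both arrays of cow 3 lay below all 6 arrays of the other cows in 6 of 8 S100 genes, a pattern found in 7.47% of all probes and noticed only after the values were seen. The genes were S100A4, S100A7, S100A8, S100A9, S100A11 and S100A14, and the exceptions were S100A10 and S100A12. The margins were narrow in S100A4, where the higher array of cow 3 and the lowest of the others both read 16.44, and in S100A8, where they read 17.42 and 17.46. With 75th percentile scaling 4 genes kept the pattern, namely S100A7, S100A9, S100A11 and S100A14, against 7.26% of all probes. With no normalization between arrays 3 genes had it (7.79% of all probes), and the authors' normalized values gave 6 (7.49%). No other cow was below or above all others in more than 1 S100 gene.

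**Figure D3:**
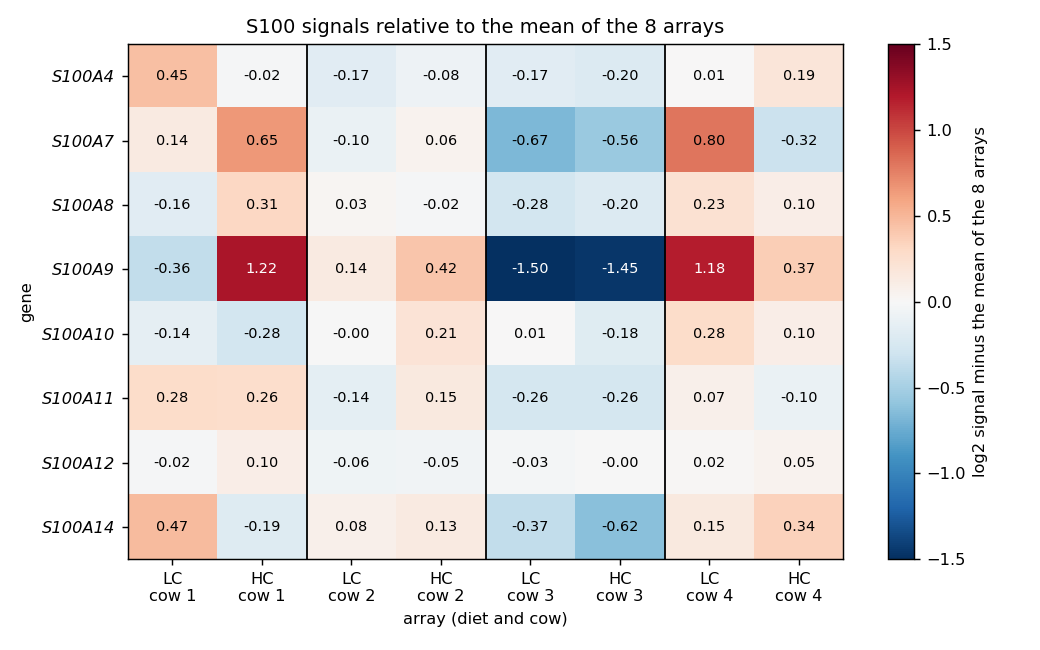
Log2 signal of each S100 gene (rows) on each array (columns, ordered by cow) minus the mean of the 8 arrays, in blue below and in red above that mean, with the value in each field. The columns of cow 3 are blue in most rows and darkest for S100A9, and the row of S100A12 is close to 0 throughout.

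A test of cow in limma, with diet and period in the model, was added after these values were seen. S100A9 alone of the 8 genes had an unadjusted p under 0.05, as did 16.3% of all probes, and its limma adjusted p was 0.211. The adjusted p of the other 7 genes ran from 0.350 to 0.893. The adjusted p of S100A9 was 0.186 to 0.217 with 75th percentile scaling, normexp background correction or the authors' normalized table. With no normalization between arrays it was 2.98e-07. In that setting and with normexp, 2 S100 genes had p under 0.05. The mean log2 signal of S100A9 was 14.70 in cow 1, 14.55 in cow 2, 12.80 in cow 3 and 15.05 in cow 4. The means of cows 1, 2 and 4 lay closer together than the LC and HC arrays of cow 1, which were 1.59 apart.

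S100A9 varied 6.60-fold between its lowest and highest array, and its SD of 1.05 over the 8 arrays stood at the 99.6th percentile among 6469 named genes, all of them well above background throughout. Its duplicate spots never differed by more than 0.09. S100A14 had an SD of 0.37 (87.5th percentile), and S100A4, S100A8, S100A10 and S100A11 had SDs of 0.19 to 0.22, between the 50.8th and the 60.5th percentile. S100A7 had an SD of 0.53, which on the same scale is the 95.6th percentile, although the gene itself was not well above background on every array. At the other end was S100A12, at percentile 0.68 after quantile normalization and at the 32.3rd after 75th percentile scaling. In the order of bovine RefSeq genes (ARS-UCD2.0), S100A8, S100A12 and S100A9 are consecutive coding genes on chromosome 3, so the S100 genes with the largest and the smallest SD are direct neighbours.

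The genes whose pattern was most like that of S100A9 were looked for among 6468 other named genes, by the root-mean-square difference of centred log2 signals over the 8 arrays. SLC13A5, a citrate transporter, was nearest at 0.43, followed by SMPDL3B, a lipid phosphodiesterase, at 0.45, ELMOD1 at 0.46 and TGM3, the transglutaminase of the cornified layer, at 0.49. The median over all genes was 1.00. All 4 were lowest in cow 3 on both diets, a trait of the S100A9 pattern by which they were chosen. S100A8, the binding partner of S100A9, ranked 219 (0.80) and S100A12 ranked 2149 (0.96). The measure also counts the size of the variation, so a gene that varies little ranks far from S100A9 whatever its shape. S100A8 had an SD of 0.21 against 1.05 in S100A9, yet both were lowest in cow 3 on each diet. Both were also highest in cow 4 on LC and in cow 1 on HC. For S100A8 the order on LC depended on the scaling. With 75th percentile scaling it was lowest in cow 1 (17.38) and highest in cow 2 (17.71) on LC. On HC it stayed lowest in cow 3 (17.44) and highest in cow 1 (17.89). Under the same scaling the 4 genes nearest to S100A9 ranked 1, 2, 5 and 7.

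**Figure D4:**
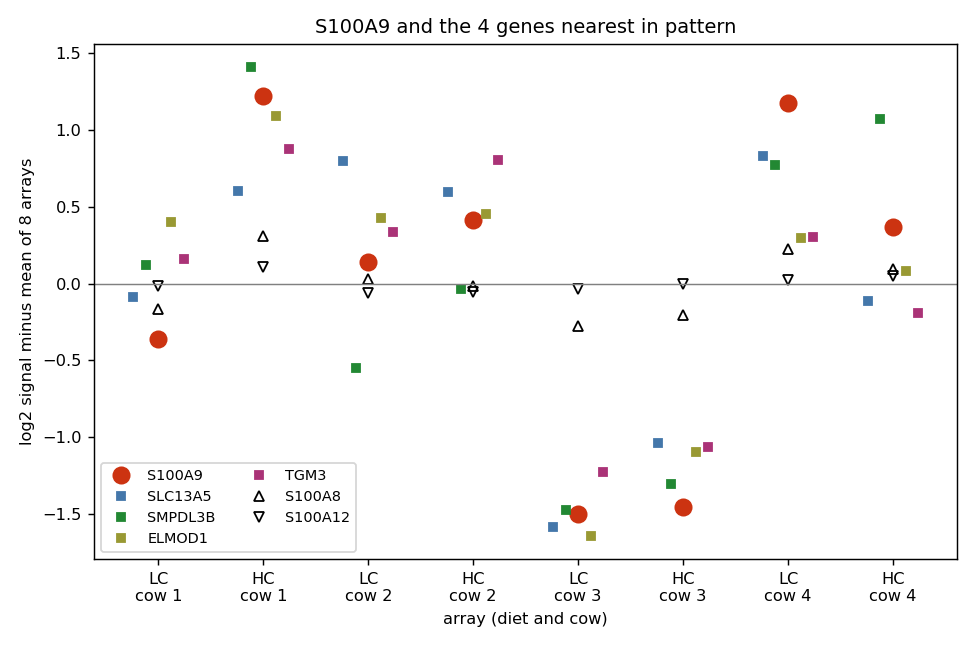
Log2 signal minus the mean of the 8 arrays (vertical axis) for S100A9 (red circles), its 4 nearest genes by pattern (coloured squares, shifted sideways for legibility) and S100A8 and S100A12 (open triangles) on each array. S100A9 and the 4 genes lie far below 0 on both arrays of cow 3. S100A8, which varies less, lies slightly below 0 there, and S100A12 stays near 0.

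For S100A14 the nearest patterns were those of DSC3, a desmosomal cadherin (0.10), TNNI3K (0.11), PDE1B (0.12) and PCYT2 (0.12). Those near S100A4 included GAPDH, the glycolytic enzyme often used as a reference gene (0.05), DNAJC11 (0.09) and AIMP2 (0.09). Under 75th percentile scaling GAPDH ranked 5, AIMP2 29 and DNAJC11 30, so the likeness of S100A4 depended on the scaling more than that of S100A9.

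Of 10 further S100 genes, 4 had a probe, and none was called for diet. S100A5 differed by -0.09 between the diets, S100A13 by 0.01 and S100A16 by 0.11, all well above background on all 8 arrays, and S100G, the intestinal calbindin, was so on none. Of 14 receptors and signalling genes that S100 proteins act through, 10 had a probe and none was called. AGER differed by 0.08, the TLR4 co-receptors LY96 and CD14 by 0.06 and 0.31, and the list's median was 0.07. The CD14 difference was 0.051 without the HC array of cow 4 and 0.56 without that of cow 3.

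TLR4, the receptor of S100A8 and S100A9, came nearest to a call in this list of receptors and signalling genes. It read 8.10, 8.003, 7.93 and 8.40 in cows 1 to 4 on LC and 8.87, 8.59, 8.33 and 8.17 on HC. Cows 1, 2 and 3 were higher on HC and cow 4 was lower, and the diets overlapped. The difference was 0.38 (SE 0.14, limma adjusted p = 0.9995), past the p threshold but under that of the fold change. Its p was no longer under 0.05 with no normalization between arrays, without moderated variance, with diet alone, with a cow block without period, without the LC array of cow 1, 2 or 3, and without the HC array of cow 1 or 3. Without both arrays of cow 3 the difference was 0.22, also not past the p threshold.

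Of 10 intracellular binding partners, 6 had a probe and none was called for diet. Annexin A2 (ANXA2), the partner of S100A10, differed by -0.16 (-0.021 without the LC array of cow 1 and -0.30 without that of cow 2), ANXA6 by 0.11, and the myosin heavy chain MYH9, a target of S100A4, by 0.0037. Median and range over the 6 were 0.07 and -0.16 to 0.34.

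Among 20 genes of cytokine pathways known to induce S100 genes in epithelia (cytokines, receptors and a receptor antagonist), 13 had a probe. Of these 1 was called for diet, against 0.922% of all probes, namely IL1B, a cytokine of the early inflammatory response. It read 4.60, 5.06, 4.15 and 4.36 in cows 1 to 4 on LC and 5.91, 6.28, 4.73 and 3.92 on HC. Cows 1, 2 and 3 were higher on HC and cow 4 was lower, so the diets overlapped. IL1B was higher on HC by 0.67 (SE 0.22, limma adjusted p = 0.9995). IL1B no longer passed both thresholds without the LC array of cow 1 (0.55) or cow 3 (0.62) and without the HC array of cow 2 (0.58) or cow 3 (0.46), and with normexp background correction the difference was 0.23. IL22RA1, the receptor subunit for IL22, differed by -0.36 (SE 0.11, limma adjusted p = 0.9995), past the p threshold but under that of the fold change. It read 6.62, 6.61, 5.99 and 6.28 in cows 1 to 4 on LC and 5.99, 6.03, 5.92 and 6.12 on HC. Each cow was lower on HC, though the diets overlapped. With single arrays left out the difference ran from -0.43 to -0.29. IL10RB differed by -0.12 and IL17F by 0.20. The median of the 13 genes was -0.03.

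Of 21 symbols listed for the epidermal differentiation complex and its transglutaminases, 4 had a probe and none was called for diet. Loricrin was listed under both its old and its new symbol. IVL, the cornified envelope protein involucrin, differed by 0.04, TGM1 by -0.05 and TGM3 by 0.22, and loricrin was well above background on no array. TGM3 read 15.97, 16.15, 14.58 and 16.11 in cows 1 to 4 on LC and 16.69, 16.62, 14.74 and 15.62 on HC. As in S100A9, the arrays of cow 3 were lowest on both diets, but TGM3 was picked above for its likeness to S100A9. In cow 3 IVL was lowest on LC (16.04) and highest on HC (16.58). TGM1 was lowest in cow 3 on LC (10.43), while on HC cow 2 (10.93) was below cow 3 (10.96).

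Markers of other cells were set beside the S100 values, as the summed linear signal of each list. Such a sum is weighted to the brightest probes. For neutrophils, the classical source of calgranulins, 8 of 15 markers had a probe of which 5 stood well above background on every array, while the granule genes MPO and CATHL1 were so on none. The neutrophil sum ranged from 1553 to 2157 on LC and from 1464 to 1970 on HC, and cow 3 held the lowest value on each diet. Squamous markers summed to 724939 to 945507 on LC and 788457 to 939037 on HC, again with cow 3 lowest on each. KRT14 and KRT6A, the brightest of them, were lowest in cow 3 on both diets, and so were DSP and SFN. Other squamous markers did not follow. KRT15 was highest in cow 3 on both diets (17.04 on LC and 16.95 on HC). DSG3 was highest in cow 3 on LC (12.44) but lowest there on HC (12.15). CLDN4 was highest in cow 3 on HC (10.73), and on LC cow 3 (10.00) was above cow 4 alone (9.92). The leukocyte and macrophage sum, over 9 of 13 markers, ranged from 2972 to 3563 on LC and from 2982 to 4583 on HC, with cow 3 lowest on each as well and ITGAM well above background on no array. Its members did not all follow the sum. CD14 and AIF1 were lowest in cow 3 on both diets, while the leukocyte integrin ITGB2 read 10.13 in cow 3 on HC, the highest of that diet, and 10.00 on LC, below cow 4 alone. Fibroblast and smooth muscle markers, 11 of 11, summed to 33696 to 39802 on LC and 32777 to 40307 on HC, where cow 3 had 38560 and 40307. The single endothelial marker with a probe, KDR of 4 listed, read 474.7 on LC and 414.2 on HC in cow 3, inside the range of the other cows. The part of these differences in the low S100 signals of cow 3 was not tested.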

How the data were processed

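RNA from rumen papillae of 4 cows, each on both diets, was hybridised to 8 single-colour Agilent arrays. The authors deposited scanner output from Agilent Feature Extraction 10.7.3.1, which holds a background-subtracted intensity per spot and was not normalized between arrays. Quantile-normalized log2 values, which the authors deposited as 1 table, served as an alternative. The deposited flags for controls, outliers and spots well above background were read as well. Samples were grouped by the diet and cow in their labels, and no column of other samples was present. In the normalized table, the columns named for cows 1 and 2 followed the scanner array of the other of these cows on both diets (r = 0.999 against 0.994 to 0.995 for the same name), so which of these animals a value belongs to is uncertain. The names of the scanner output are used here, and both cows had the same diet in each period. No unit gives a read depth, and precision is limited by the number of arrays.

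Control and outlier spots were left out (0 to 13 outliers of 42990 spots per array), log2 intensities were quantile-normalized with limma 3.58.1 in R 4.3.3, as in the study's methods, and spots of a probe were averaged. A probe was counted as well above background where all its spots were. Probes were named by RefSeq accession through the gene table of ARS-UCD2.0 (8297 of 10176 with an accession). The array was designed on another build, so coordinates are not given. For a gene with several probes the brightest one was taken.

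A model of diet, period and their interaction was fitted with limma to all 21475 probes, with 4 residual and 2.26 prior degrees of freedom. Calls required an unadjusted p under 0.05 together with a 1.5-fold change or more, and adjusted p values (Benjamini-Hochberg) cover all probes. Exact tests used scipy 1.17.1, tables pandas 2.3.3 and plots matplotlib 3.10.9 in Python 3.11.15. The fits were tested on simulated data. The pairing by cow comes from the labels. Over 16030 probes well above background on all arrays, deviations from the diet means correlated at r = 0.113 to 0.467 between the arrays of a cow and at -0.237 to 0.185 between cows. Probes are not independent replicates.

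Alternatives were 75th percentile scaling, no normalization between arrays, normexp background correction (on the median signal, with offset 50), the deposited table, a filter on dim probes, other designs, a cow block and leaving out each array. Leaving out cow 3 and the test of cow were added after the data were seen. All 10 S100 genes are named, with the called genes of each list or otherwise its first 4 genes well above background on all arrays, and the 4 genes nearest in pattern to the 3 S100 genes with the largest range among those well above background on all arrays. Of these, 2 genes are not reported here. KRT14, KRT15, KRT6A, TP63, DSG3, CLDN4, MPO, CATHL1, ITGAM, ITGB2, AIF1, KDR, S100G and loricrin were named as marker or list members beyond this rule. The same holds for DSP and SFN. The S100 genes and the lists were chosen with earlier results of these data known.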

Additional observations from a re-analysis of the deposited data

Results flagged for a closer look

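Each gene's 4 arrays of a diet were searched for a single array set apart by most of the group's range, a pattern that chance gives in about 1 in 20 groups, and 52 groups of 26 genes were searched. None of the 8 S100 genes of the main list was picked out. S100A5 on HC had a log2 signal of 9.54 in cow 4, above the other 3 cows. IVL on LC had 16.04 in cow 3 and TGM3 on LC had 14.58 in cow 3, both below the other 3 cows.

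Of the genes named, 2 from the lists passed both thresholds for the interaction of diet and period, as did 2.93% of all probes. In this crossover that term is the difference between cows 1 and 2 and cows 3 and 4. IL1B had an interaction of 1.17 (limma adjusted p = 0.291) and TGM3 one of 1.09 (limma adjusted p = 0.435). In both genes the HC arrays of cows 1 and 2 were the highest of the 8.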

How the results depend on the processing

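The count of S100 genes called for diet was 0 under every one of the 22 alternatives to which it applied, from 0 to 0 when each array was left out. With the cow as a replicate block, with or without period or as a random block, it was 0 as well, and the block changed no call of an S100 gene. For period the count was 0 to 2 with single arrays left out and 2 without both arrays of cow 3 (S100A7 0.73, S100A9 0.87), and for the interaction it was 0 to 2. A mean of all probes was not run, since each S100 gene has 1 probe. The cause of these changes was not tested. Differences under 1.5-fold could not be called by the rule used, and S100A7 was near background.

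Several differences changed sign, the S100A9 interaction among them, which was 0.71 on all 8 arrays. Without both arrays of cow 3, the diet difference was -0.015 in S100A11, 0.0072 in S100A5, -0.10 in AGER, -0.091 in MYH9, -0.22 in IL17F and -0.17 in IVL, and the interaction was -0.050 in S100A4, -0.056 in S100A7, -0.12 in S100A8, -0.42 in S100A9 and -0.12 in S100A14. With 75th percentile scaling the interaction was -0.0027 in S100A4 and -0.011 in S100A8, and the period difference -0.048 in S100A12. With no normalization the diet difference was -0.018 in S100A11, -0.023 in S100A13, -0.020 in MYH9 and -0.010 in IVL. With normexp it was -0.010 in S100A12, -0.014 in S100A13 and -0.0013 in IVL, and the interaction of S100A12 was 0.025. The values the authors normalized gave S100A12 -0.013 for diet and 0.0046 for the interaction. The call of IL1B was also lost without moderated variance, without the interaction term, with diet alone and with a cow block without period (0.67 in each), and without cow 3 (0.41).

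With single arrays left out, the diet difference ran from -0.21 to 0.098 in S100A4, -0.45 to 0.28 in S100A7, -0.032 to 0.22 in S100A8, -0.39 to 0.94 in S100A9, -0.19 to 0.049 in S100A10, -0.077 to 0.13 in S100A11, -0.41 to 0.072 in S100A14, -0.26 to 0.072 in S100A5, -0.16 to 0.17 in S100A13, -0.030 to 0.19 in AGER, -0.026 to 0.14 in LY96, -0.035 to 0.26 in ANXA6, -0.10 to 0.11 in MYH9, -0.43 to 0.82 in IL17F, -0.085 to 0.17 in IVL, -0.25 to 0.16 in TGM1, -0.17 to 0.60 in TGM3, 0.27 to 0.50 in TLR4, 0.051 to 0.56 in CD14, -0.30 to -0.021 in ANXA2 and 0.46 to 0.87 in IL1B. The period difference ran from -0.29 to 0.023 in S100A4, -0.0061 to 0.25 in S100A8, -0.013 to 1.33 in S100A9, -0.011 to 0.23 in S100A10, -0.022 to 0.058 in S100A12 and -0.38 to 0.10 in S100A14. The interaction ran from 0.0041 to 0.74 in S100A7, 0.037 to 1.38 in S100A9, 0.0077 to 0.49 in S100A14, -0.064 to 0.25 in S100A4, -0.047 to 0.21 in S100A8, -0.23 to 0.017 in S100A10 and -0.056 to 0.024 in S100A12.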
